A study of Mus musculus with 12 samples.

Results

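The molecular clock was followed in adult hippocampus through 10 genes, Arntl, Clock, Npas2, Per2, Per3, Cry1, Cry2, Nr1d1, Nr1d2 and Dbp, of 19057 genes named on the array. All 17 probes that carry one of these symbols in the platform annotation were taken. The RNA came from the hippocampus of 12 female C57BL/6J mice, 12 weeks old, hybridised to 12 Illumina bead arrays with 1 array per mouse. In the EtOH group (6 arrays) the mothers drank ethanol (10% v/v) by choice, starting 0.5 days and ending 8.5 days after mating. The Control group (6 arrays) has the same strain, sex, age and tissue. The drinking protocol is written beside Control mice too, but the treatment tag and the title separate the groups, and what the Control mothers drank is not given in the sources used here. The labels tell no litters apart, so siblings may share a dam and p-values measure the spread between arrays only. They give no hour of tissue collection, which for genes with a daily rhythm limits what a comparison of groups can show.

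The mammalian clock is a feedback loop of transcription. The activators CLOCK (or its relative NPAS2) and BMAL1, encoded by Arntl, bind E-boxes and switch on the Per and Cry genes, whose proteins return to repress the activators. The same activators drive Nr1d1 and Nr1d2, which encode the REV-ERB repressors of Arntl, and Dbp, which encodes an activator that binds D-boxes. In most tissues, hippocampus among them, transcripts of Arntl therefore peak when those of Dbp, Nr1d1 and the Per genes are low.

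Promoter windows of 250 bases before the annotated start were taken from RefSeq (GRCm38.p6), which held 9 of the 10 genes. Each was searched on both strands for the E-box CACGTG, the related CACGTT, the D-box TTANGTAA and the REV-ERB and ROR sites TAGGTCA and TGGGTCA. Of 32851 windows of this length in the table, 6.02% hold CACGTG, 3.85% CACGTT, 2.06% TTANGTAA, 2.23% TAGGTCA and 3.24% TGGGTCA. The windows below belong to Per3 and Nr1d1, to Dbp, which varied most among the clock genes between arrays, and to Ciart, a repressor of the clock that followed Dbp most closely. Capitals mark motif matches.
Per3 promoter, chr4:151044666-151044915, minus strand: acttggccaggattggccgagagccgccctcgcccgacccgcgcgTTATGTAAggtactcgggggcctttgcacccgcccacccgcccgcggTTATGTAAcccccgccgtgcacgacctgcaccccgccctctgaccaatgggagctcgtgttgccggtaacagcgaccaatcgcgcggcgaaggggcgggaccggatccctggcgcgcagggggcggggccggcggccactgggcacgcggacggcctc
Nr1d1 promoter, chr11:98775378-98775627, minus strand: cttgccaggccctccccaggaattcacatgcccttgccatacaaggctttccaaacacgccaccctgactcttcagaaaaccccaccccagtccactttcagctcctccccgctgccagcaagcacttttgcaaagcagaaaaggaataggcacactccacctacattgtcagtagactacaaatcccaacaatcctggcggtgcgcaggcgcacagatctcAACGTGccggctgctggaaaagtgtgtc
Dbp promoter, chr7:45704997-45705246, plus strand: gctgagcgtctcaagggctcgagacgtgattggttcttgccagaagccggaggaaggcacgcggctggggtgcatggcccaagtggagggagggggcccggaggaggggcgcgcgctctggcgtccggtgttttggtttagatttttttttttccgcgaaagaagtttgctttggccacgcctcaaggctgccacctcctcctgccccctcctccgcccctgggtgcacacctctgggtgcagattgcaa
Ciart promoter, chr3:95882229-95882478, minus strand: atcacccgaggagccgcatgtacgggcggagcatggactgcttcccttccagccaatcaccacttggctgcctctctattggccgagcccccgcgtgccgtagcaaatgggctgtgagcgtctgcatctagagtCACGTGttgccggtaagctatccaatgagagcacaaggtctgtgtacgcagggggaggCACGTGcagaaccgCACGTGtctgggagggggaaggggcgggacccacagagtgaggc
Per3 holds 2 D-boxes, from 205 to 198 and from 158 to 151 bases before the start, and Nr1d1 and Cry2 each hold 1 copy of CACGTT, read on the other strand. Ciart holds 3 copies of CACGTG. In the windows of Dbp, Arntl, Clock, Npas2 and Nr1d2 none of these letters were found, and Cry1 holds 1 CACGTG beside 1 CACGTT.

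Probes detected at a detection p under 0.05 on at least 6 arrays were kept, which left 12 of the 17 probes and 9 of the 10 genes. Cry1, a repressor of the loop, was not well above background on any array (0 of 12), so no difference is given for it. One probe each of Clock, Per2, Cry2 and Nr1d2 was also left out, detected on 0, 5, 0 and 1 of 12 arrays. Levels are background-corrected, quantile-normalized log2 intensities, and each gene is given by its brightest probe. Levels of different probes are not comparable.

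Hippocampal neuron markers were all detected (8 of 8), with list means of 9.89 to 10.15 in EtOH and 10.01 to 10.21 in Control (log2). Of 5 markers of the suprachiasmatic nucleus, the master clock of the brain, Vip and Grp, which hippocampal interneurons also express, were each detected by 1 probe on 12 of 12 arrays, and Avp on 0, while no probe of Prok2 or Lhx1 was detected on more than 1. The choroid plexus gene Ttr stood at 15.39 or above in EtOH 2, EtOH 4, Control 2 and Control 4, and at 11.57 or below in the other 8 arrays. The median raw intensity of an array ran from 126 to 146.9. The arrays lie on 2 chips, chip 1 with 4 EtOH and 2 Control arrays and chip 2 with 2 EtOH and 4 Control arrays, and the chip was a term of the fit.

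The groups were compared to ask whether exposure to ethanol in early pregnancy was followed by altered expression in the adult. No clock gene differed between EtOH and Control hippocampus beyond the spread between arrays. In limma, adjusted over 20172 kept probes by the Benjamini-Hochberg method, 0 of 9 genes passed an adjusted p of 0.05, against 0% of all kept probes; every clock gene had an adjusted p of 1. Without adjustment, 0 of 9 genes had a limma p under 0.05, against 3.48% of all kept probes. That count became 1 with median scaling, without EtOH 2 and without Control 1 (Arntl, unadjusted p = 0.0448, 0.0121 and 0.0469 in limma) and without EtOH 5 (Npas2, 0.0373). The exact permutation of group labels within chips also gave 0 of 9 genes under 0.05, with a lowest p of 0.133 (Arntl). The median difference over the 9 genes was 0.033 (5 higher, 4 lower in EtOH), beside 0.0043 over all 10936 genes. The EtOH and Control arrays overlapped for each of the 9 genes (0.134% of kept probes did not overlap). Each difference below is the log2 level in EtOH minus that in Control with the chip in the model, and its 95% interval is limma's. In whole tissue, fewer cells of a type and less RNA per cell cannot be told apart.

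**Figure D1:**
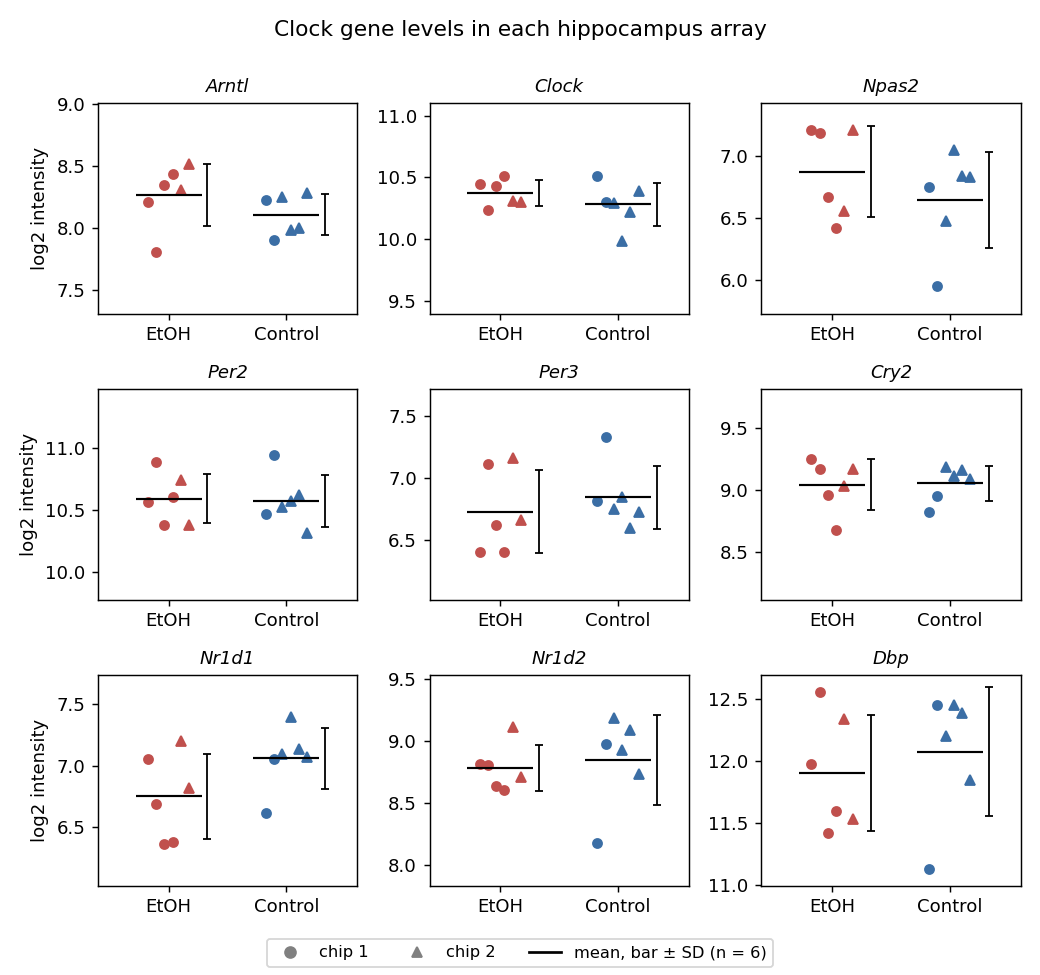
Normalized log2 intensity of the brightest probe of each detected clock gene on each array, EtOH left and Control right, circles for chip 1 and triangles for chip 2; lines are means and bars ± SD (n = 6), and each axis spans the same number of log2 units. The groups overlap for each gene, and Dbp has the widest spread, from 11.13 to 12.56.

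Among the activators, Arntl had a lowest, median and highest level of 7.80, 8.32 and 8.51 in EtOH, against 7.90, 8.11 and 8.28 in Control. The means were 8.26 ± 0.25 and 8.11 ± 0.16 (SD, n = 6 each). The Control median was exceeded by 5 of 6 EtOH arrays, and EtOH 2 was the lowest of all arrays. The difference of 0.21 (95% interval -0.052 to 0.46) has the smallest unadjusted p of the 9 genes, 0.109 in limma. It was 0.13 within chip 1 and 0.28 within chip 2.

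Npas2, which can stand in for CLOCK in forebrain, had the largest difference of the 9 genes, 0.30 (-0.14 to 0.74). It ran from 6.42 to 7.21 in EtOH with a median of 6.93, and from 5.95 to 7.05 in Control with a median of 6.79. The means were 6.88 ± 0.37 and 6.65 ± 0.39. EtOH 1, 2 and 6 were the 3 highest arrays and Control 2 the lowest. Chip 1 alone gave 0.52 and chip 2 alone gave 0.086. Without Control 2 the difference was 0.099, and without EtOH 5 it was 0.48. The mean of a thalamus marker list (5 of 5 genes kept) moved with Npas2 across arrays, at r = 0.87 and rho = 0.87 (adjusted permutation p = 0.0445 and 0.0807 over 117 relations of clock genes with marker lists and array measures). It was 0.93 within chip 1, 0.92 within chip 2 and 0.79 without the 2 arrays farthest from the Npas2 median. The list mean ran from 8.86 to 9.44 in EtOH and from 8.71 to 9.21 in Control. Its gene Slc17a6, a vesicular glutamate transporter of thalamic neurons, stood at 11.73, 11.63 and 11.34 in EtOH 1, 2 and 6. It was lowest in Control 2, at 9.39. By its brightest probe, Ntng1 was also highest in those EtOH arrays and lowest in Control 2, at 9.71. A dimmer Ntng1 probe was highest in Control 6, at 7.87, and lowest in Control 2, at 6.98. Rora was highest in EtOH 1, 2 and 6, but Control 2, at 8.53, was not its lowest. The other markers of the list did not follow: Prkcd was lowest in EtOH 1, at 7.6, and stood at 8.43 in Control 2. Tcf7l2 stood at 7.28 in EtOH 1 and 7.49 in Control 2. The neocortex list mean (3 of 4 genes kept) ran from 8.17 to 8.82 in EtOH and from 8.06 to 8.46 in Control, with r = 0.73 and rho = 0.74 (adjusted permutation p = 0.152 and 0.299). Rora of the thalamus list and Rorb of the neocortex list also belong to the list of other clock pathway genes used below. The part of the thalamus and neocortex markers in the Npas2 difference was not tested.

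Clock, the partner of BMAL1, hardly varied, with 10.38 ± 0.11 in EtOH, 10.28 ± 0.17 in Control (SD, n = 6 each) and a difference of 0.048 (-0.13 to 0.23). Its dimmer kept probe had a difference of -0.0026 (-0.24 to 0.23). As a ratio of EtOH to Control, the interval of the brighter probe ran from 0.914 to 1.17.

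None of the measured repressors of the Per and Cry families passed the test, and Cry1 was not measured. Per2, which is also induced by neuronal activity and glucocorticoids, stood at 10.38, 10.58 and 10.89 (lowest, median, highest) in EtOH, against 10.31, 10.54 and 10.94 in Control. Its probes differed by -0.017 (-0.27 to 0.24) and 0.0030 (-0.27 to 0.27) and correlated across arrays at r = 0.91 (n = 12).

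Per3 averaged 6.73 ± 0.33 in EtOH hippocampus, against 6.84 ± 0.25 in Control hippocampus (difference -0.13, interval -0.49 to 0.24). Its dimmer probe, detected on 4 of 6 EtOH and 6 of 6 Control arrays, differed by -0.20 (-0.59 to 0.19), and the 2 probes correlated at r = 0.44. Within chip 1 the Per3 difference was -0.44 and within chip 2 it was 0.18, so the direction turns with the chip. Control 2, at 7.33, was the highest array, and without it the difference was 0.046.

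Cry2, the only Cry gene measured here, stood at 9.04 ± 0.21 in EtOH and 9.05 ± 0.14 in Control. Its difference after adjustment for the chip was 0.047 (-0.16 to 0.25).

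The REV-ERB genes form the second loop. Nr1d1 had levels of 6.37, 6.76 and 7.20 (lowest, median, highest) in EtOH, against 6.62, 7.08 and 7.39 in Control. EtOH 3 and EtOH 4 were the lowest arrays, at 6.37 and 6.38, and the Control median exceeded 5 of 6 EtOH arrays. The difference was -0.18 (-0.48 to 0.11, unadjusted p = 0.201 in limma), with -0.21 within chip 1 and -0.16 within chip 2. It was -0.30 without the chip term, -0.095 without Control 2 and -0.021 without the 4 arrays high in Ttr. Its paralog Nr1d2 averaged 8.78 ± 0.19 in EtOH and 8.85 ± 0.36 in Control, and with the chip in the model the difference was 0.033 (-0.27 to 0.34). The unadjusted means and the adjusted difference of Nr1d2 point opposite ways.

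Dbp, the output gene of the loop, had levels of 11.42, 11.79 and 12.56 in EtOH, against 11.13, 12.29 and 12.45 in Control (lowest, median, highest), with means of 11.90 ± 0.47 and 12.08 ± 0.52 (SD, n = 6 each). In both groups the arrays spread widely: EtOH 2 and EtOH 5 stood at 12.56 and 12.34, the other EtOH arrays at 11.98 or below. Among Control arrays 4 reached 12.20 or more, while Control 6 had 11.85 and Control 1 had 11.13. The difference of -0.097 (-0.67 to 0.48) was within this spread, a ratio of EtOH to Control of 0.935 (0.628 to 1.39). It was 0.095 within chip 1 and -0.29 within chip 2.

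**Figure D2:**
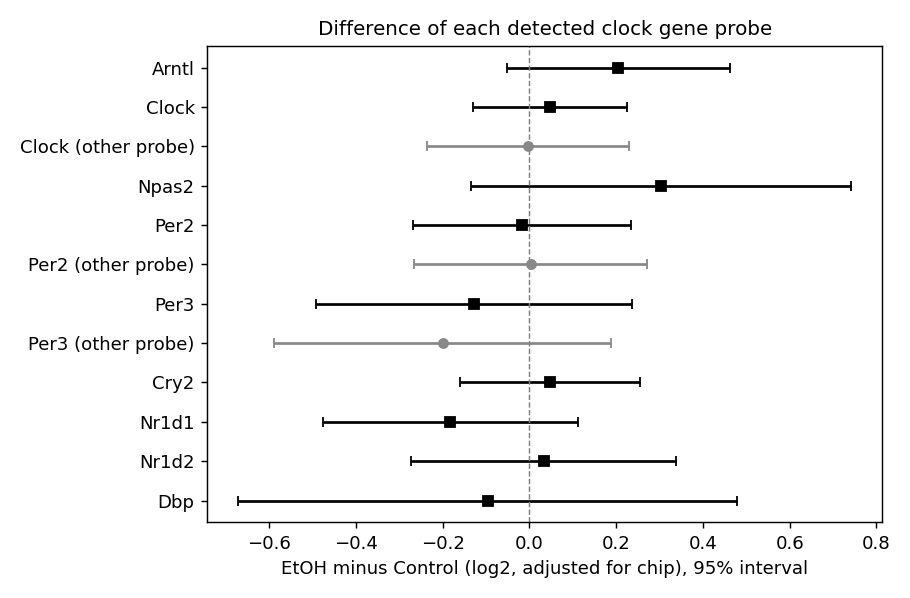
Difference of each kept clock gene probe, EtOH minus Control on the log2 scale with 95% intervals from limma; black squares are the brightest probe of a gene and grey circles other probes. All 12 intervals include 0, and that of Dbp is the widest, from -0.67 to 0.48.

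Between the chips no clock gene passed either. In limma 0 of 9 genes passed an adjusted p of 0.05 for chip 2 against chip 1, against 0.773% of all kept probes. Nr1d1 averaged 7.12 on chip 2 and 6.69 on chip 1, a difference adjusted for the group of 0.36 (0.071 to 0.66, adjusted p = 0.194). It was the 1 of 9 genes at an unadjusted p under 0.05, where 17.3% of all kept probes stood. The next smallest p belonged to Nr1d2, at 0.30 (-0.00082 to 0.61).

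The clock genes differed in how much they varied between arrays of one group and chip. The residual SD of Dbp was 0.50, above that of 99.0% of kept probes, and its lowest and highest arrays lay 2.69-fold apart. Npas2 (0.38, above 97.4%) and Per3 (0.31, above 92.9%) also varied more than most probes. Clock had the smallest residual SD, 0.13, above that of 37.1% of probes. Residual SDs were 0.16 for Cry2, 0.21 for Per2 and for Arntl, 0.24 for Nr1d1 and 0.26 for Nr1d2, beside a median of 0.16 over all kept probes.

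Over the 12 arrays, Dbp had positive correlations with Nr1d2, Per2, Nr1d1, Per3 and Cry2, and negative ones with Arntl and Clock. Pearson's r was tested for all 36 pairs of the 9 genes by permutation, with 100000 resamples and Benjamini-Hochberg adjustment over the pairs. It passed for 1 pair, Nr1d2 with Dbp, and 12 pairs had an unadjusted p under 0.05, of which 5 hold Dbp. With values centred on their chip 4 pairs passed, and with both group and chip removed 0 passed (lowest adjusted permutation p = 0.0625). The latter test exchanged arrays only within each group and chip and enumerated all arrangements, which are far fewer, so it is coarser. There r was -0.89 for Arntl and 0.88 for Per2, each with Dbp, beside -0.74 and 0.70 pooled. For Clock with Nr1d1 it was -0.47, beside -0.68 pooled. By Spearman's rho 0 pairs passed (lowest adjusted permutation p = 0.0519). Per3 and Cry2 had r = 0.52 and 0.50 with Dbp (adjusted permutation p = 0.187 and 0.192), with rho = 0.52 and 0.27. For Cry2 with Dbp, r was 0.57 within chip 1, -0.28 within chip 2 and 0.084 without EtOH 4 and Control 1.

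**Figure D3:**
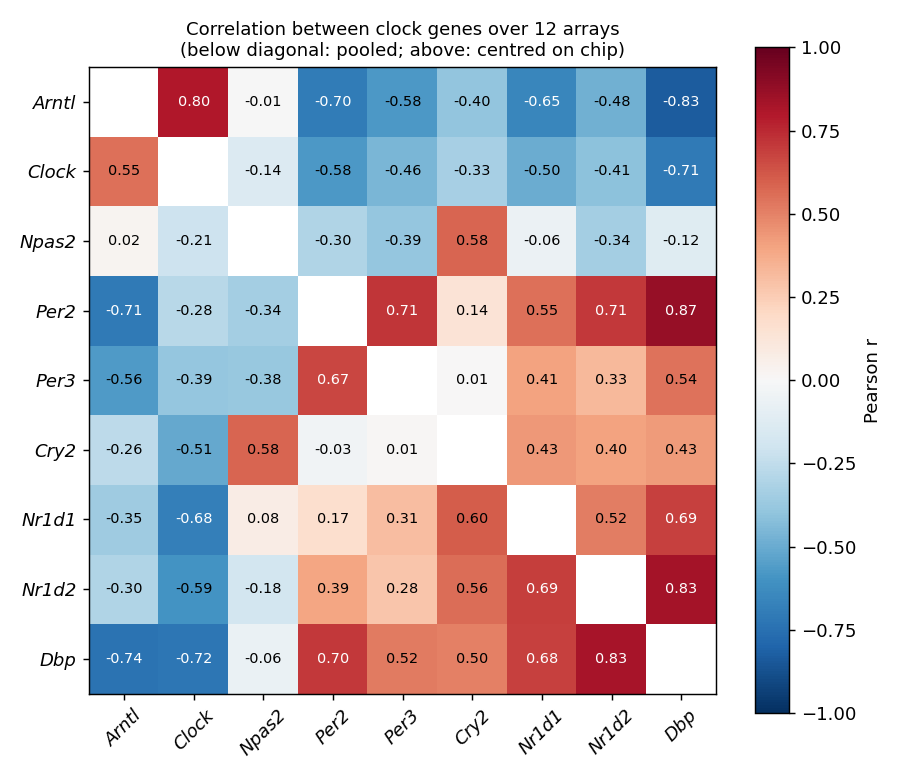
Pearson's r between the 9 detected clock genes over 12 arrays, from -1 (blue) to 1 (red); below the diagonal for pooled values, above it for values centred on their chip. Dbp is positive with Nr1d2 (0.83) and negative with Arntl (-0.74, and -0.83 centred on the chip), while Npas2 is near 0 with both.

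Nr1d2 and Dbp correlated at r = 0.83 (adjusted permutation p = 0.0223) with a rank correlation rho of 0.70 (adjusted p = 0.103), so rho did not pass. With group and chip removed r was 0.85 and did not pass either (adjusted permutation p = 0.0969). The lowest array for both genes was Control 1, at 8.18 for Nr1d2 and 11.13 for Dbp. Within chip 1 r was 0.86 and within chip 2 it was 0.78, and centred on the chip it was 0.83 (adjusted permutation p = 0.0265). Without Control 1 and Control 3, the arrays farthest from the Nr1d2 median, r was 0.80. Leaving out 1 array at a time gave r between 0.73 and 0.90. The pair missed the threshold without EtOH 3, without Control 1 and without Control 5. The lowest adjusted permutation p over all pairs tested was then 0.0522, 0.0511 and 0.0515, so that of Nr1d2 with Dbp may be larger. Without the 4 arrays rich in choroid plexus transcripts the correlation of Nr1d2 with Dbp was as large, at r = 0.94 over 8 arrays (adjusted p = 0.0161, exact permutation).

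Arntl and Dbp ran in opposite directions, with r = -0.74 and rho = -0.77 (adjusted permutation p = 0.0605 and 0.0519). EtOH 2 had the highest Dbp (12.56) and the lowest Arntl (7.80), while EtOH 6 had the highest Arntl (8.51) with Dbp at 11.53. Control 1 had the lowest Dbp with a middling Arntl of 8.22. Centred on the chip r was -0.83 (adjusted permutation p = 0.0302), with -0.84 within each chip. Without EtOH 2 and Control 2 the pooled r was -0.62. Over the 8 arrays without high choroid plexus transcripts it was -0.48 (adjusted p = 0.513, exact permutation).

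Per2 and Dbp correlated at r = 0.70 and rho = 0.79 (adjusted permutation p = 0.0605 and 0.0519). Centred on the chip r was 0.87 (adjusted permutation p = 0.0265), with 0.91 within chip 1 and 0.80 within chip 2. Without EtOH 2 and Control 2 the pooled r was 0.59. Over the 8 arrays without high choroid plexus transcripts it was 0.67 (adjusted p = 0.323, exact permutation). EtOH 2 and Control 2, which had the highest Per2 at 10.89 and 10.94, were both high in Dbp.

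The activators Arntl and Clock correlated at r = 0.55 and rho = 0.57 when pooled (adjusted permutation p = 0.145 and 0.202), and at 0.80 centred on the chip (adjusted permutation p = 0.0302). Within chip 1 r was 0.93 and within chip 2 it was 0.70, and without EtOH 2 and Control 2 the pooled r was 0.61. Without the 4 arrays rich in choroid plexus transcripts it was 0.16 over 8 arrays (adjusted p = 0.789, exact permutation). Clock and Dbp had r = -0.72 and rho = -0.76 (adjusted permutation p = 0.0605 and 0.0519), with -0.88 within chip 1 and -0.57 within chip 2. Without EtOH 4 and Control 4 it was -0.78. Over the 8 arrays without high choroid plexus transcripts it was -0.73 (adjusted p = 0.323, exact permutation). The fold range of Clock is small, so this relation concerns levels no more than 1.44-fold apart.

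The REV-ERB paralogs Nr1d1 and Nr1d2 had r = 0.69 and rho = 0.80 (adjusted permutation p = 0.0605 and 0.0519), which was 0.55 within chip 1 and 0.45 within chip 2. Without EtOH 3 and EtOH 4 it was 0.72. Nr1d1 and Dbp had r = 0.68 and rho = 0.55 (adjusted permutation p = 0.0687 and 0.229), with 0.61 within chip 1 and 0.88 within chip 2, and leaving out the same 2 arrays gave 0.56. Per2 and Per3 had r = 0.67 and rho = 0.45 (adjusted permutation p = 0.0687 and 0.318), with 0.76 within chip 1 and 0.61 within chip 2, but 0.26 without EtOH 2 and Control 2. Arntl and Per2 had r = -0.71 and rho = -0.59 (adjusted permutation p = 0.0605 and 0.197), but -0.34 without EtOH 2 and Control 2. Both of these arrays lie on chip 1, and for Arntl and Per2 r was -0.85 within chip 1 and -0.43 within chip 2. Over the 8 arrays without high choroid plexus transcripts, r was -0.46 for Arntl and Per2 and 0.40 for Per2 and Per3. It was 0.74 for Nr1d1 and Nr1d2 and 0.87 for Nr1d1 and Dbp. Npas2 had r = 0.024 with Arntl and -0.064 with Dbp (rho = -0.11 and 0; adjusted permutation p of r 0.970 and 0.920). Its largest r was 0.58 with Cry2 (rho = 0.66, adjusted permutation p = 0.138 and 0.123), and 0.60 without EtOH 6 and Control 2.

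**Figure D4:**
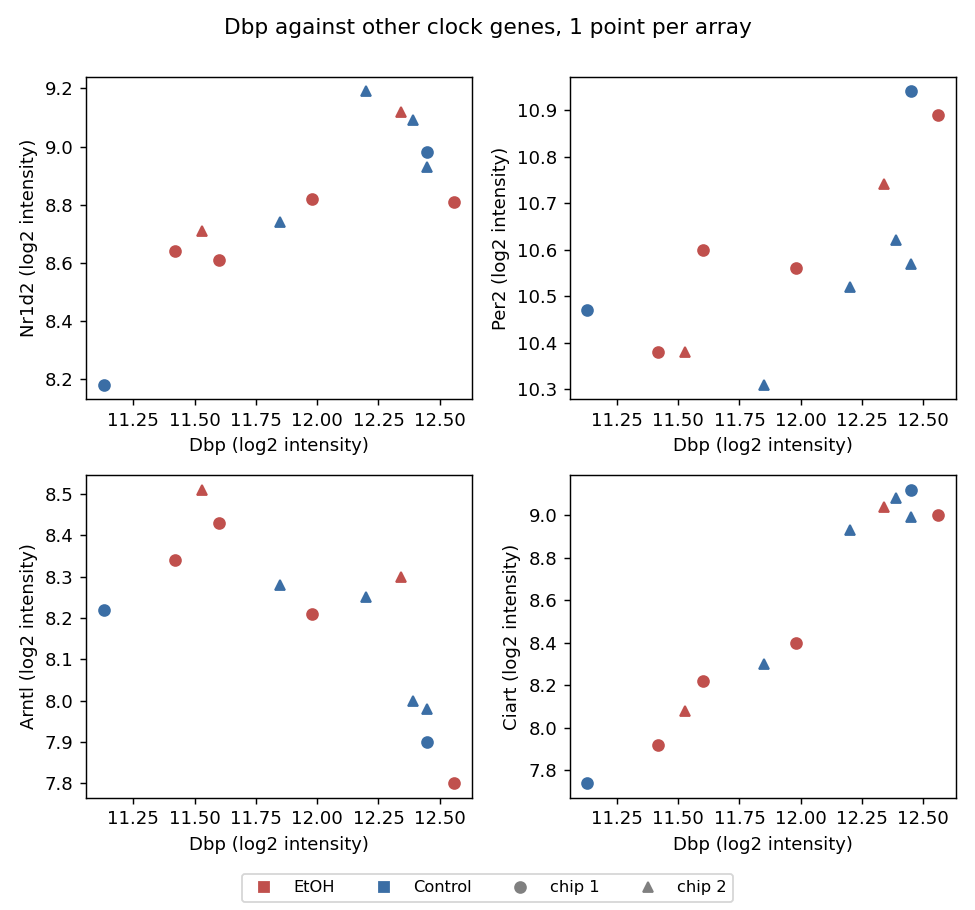
Log2 intensity of Nr1d2, Per2, Arntl and Ciart (vertical) against Dbp (horizontal), 1 point per array, coloured by group and shaped by chip. Both groups hold arrays with high and with low Dbp, and the points run along 1 direction in each panel, rising for Nr1d2 (r = 0.83), Per2 (0.70) and Ciart (0.98) and falling for Arntl (-0.74).

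Set against all 10935 other genes by r with Dbp over 12 arrays, centred on the chip, Per2 ranked 6th, Nr1d2 17th and Nr1d1 144th from the top. Per3 ranked 652nd and Cry2 1269th from the top. Arntl ranked 32nd and Clock 207th from the bottom. An r at least as large in size as that of Arntl (-0.83) was found for 0.43% of genes, and for 75.5% as large as that of Npas2 (-0.12). The gene most like Dbp was Ciart, with r = 0.98, followed by Mapk4, an atypical MAP kinase (0.92), and Cracr2b, a regulator of calcium release channels (0.91). The most opposite were Faim2, an inhibitor of Fas-driven cell death (-0.93), the chaperonin subunit Cct4 (-0.91) and the anion exchanger Slc26a4 (-0.91). For Arntl the highest were Drp2 (0.93), the neuronal transcription factor Myt1l (0.93) and Skap2 (0.90), and the lowest Smpdl3b (-0.92), the phosphatase Ppm1g (-0.92) and the actin crosslinker Actn4 (-0.91). These are the extremes of 10935 values over 12 arrays, and are given as a description.

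Ciart averaged 8.44 ± 0.47 in EtOH and 8.69 ± 0.55 in Control (SD, n = 6 each), and ran from 7.74 in Control 1 to 9.12 in Control 2. The array highest in Dbp, EtOH 2, had 9.00. Its difference was -0.15 (-0.75 to 0.44), and its other probes differed by -0.25 and -0.11. As for Dbp, the spread within each group exceeded the difference between them.

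Other genes of the clock pathway came from a list of 38 genes with kinases, ubiquitin ligase parts, nuclear receptors and further output genes, of which 27 had a kept probe. In limma 0 of 27 rose and 0 fell at an adjusted p of 0.05 in EtOH against Control, against 0% of all kept probes. Without adjustment 0 of 27 had a limma p under 0.05, against 3.48% of all kept probes. The median difference was 0.036 (17 higher, 10 lower), beside 0.0043 over all 10936 genes (5706 higher, 5230 lower). The smallest unadjusted p belonged to Sirt1, a deacetylase that acts on clock proteins, with a difference of 0.13 (-0.045 to 0.31). Tef and Hlf, relatives of Dbp that bind the same D-box, followed at -0.10 (-0.27 to 0.061) and -0.19 (-0.49 to 0.11). Their r with Dbp over 12 arrays was -0.22 and -0.20. The Hlf probe was detected on only 7 of 12 arrays, with means of 5.30 in EtOH and 5.49 in Control.

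After Ciart, the list members with the largest r with Dbp were Usp2, a deubiquitinase with a daily rhythm (0.80), and Per1 (0.76). Per1, the third Per gene and one that light and activity induce quickly, averaged 9.37 ± 0.20 in EtOH and 9.33 ± 0.28 in Control, and its difference was 0.14 (-0.12 to 0.40). Its second kept probe differed by 0.078. Usp2 differed by -0.017 (-0.26 to 0.23), and its dimmer probes by 0.20 and -0.28.

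**Figure D5:**
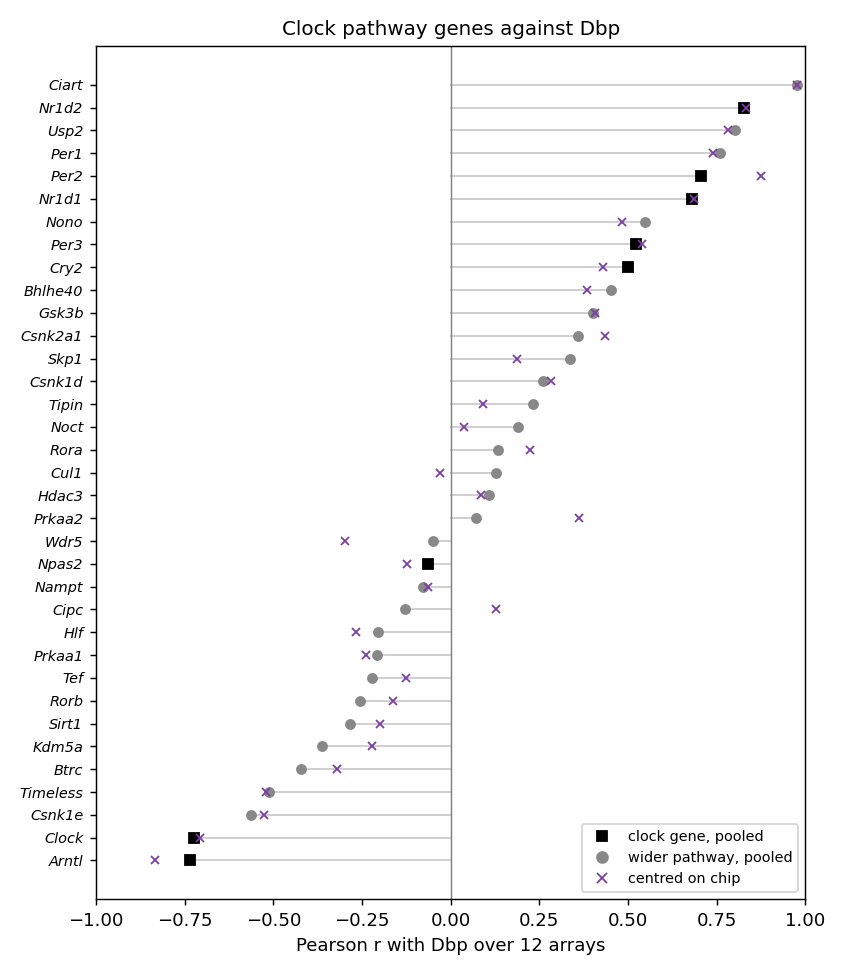
Pearson's r with Dbp over 12 arrays (horizontal) for 8 clock genes (squares) and 27 other genes of the pathway (circles), pooled, and centred on the chip (crosses). Ciart lies at the top with 0.98 and Arntl at the bottom with -0.74, while Npas2, Tef and Hlf lie near 0.

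Each of the 9 genes was also set against the means of 11 marker lists, the median raw intensity and the number of detected probes, 117 relations in all. By Pearson's r, 1 passed adjustment, that of Npas2 with the thalamus list given above, and 0 passed by rho. The number of detected probes ran from 19774 to 20459 in EtOH and from 19748 to 20858 in Control, and had r = 0.74 and rho = 0.62 with Dbp (adjusted permutation p = 0.152 and 0.409). That r was 0.67 within chip 1, 0.83 within chip 2 and 0.48 without the 2 arrays farthest from the Dbp median. With Nr1d2 it had r = 0.73 and with Nr1d1 r = 0.71 (adjusted permutation p = 0.152 each). Its part in the correlations was not tested. The choroid plexus list mean, with 4 of 8 genes kept, ran from 7.03 to 12.15 in EtOH and from 6.87 to 12.37 in Control, and had r = 0.67 with Per2, 0.39 with Dbp and -0.54 with Arntl (adjusted permutation p = 0.191, 0.753 and 0.543). The meninges list mean had r = -0.65 and rho = -0.71 with Arntl (adjusted permutation p = 0.191 and 0.299), and r = -0.49 without the 2 farthest arrays, with 6 of 6 genes kept and means of 7.37 to 8.11 in EtOH and 7.64 to 8.31 in Control. Hippocampal neuron markers had r = 0.10 with Dbp, -0.0023 with Arntl and -0.64 with Npas2 (adjusted permutation p = 0.964, 0.994 and 0.191). The mean of Vip and Grp had r = -0.74 with Per3, -0.72 with Per2 and 0.70 with Npas2 (adjusted permutation p = 0.152 each). Without the 2 farthest arrays these were -0.35, -0.57 and 0.51. The endothelium list mean had r = -0.70 and rho = -0.79 with Nr1d1 (adjusted permutation p = 0.152 and 0.192). That r was -0.17 within chip 1 and -0.84 within chip 2. The part of these markers in the clock gene levels was not tested.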

How the data were processed

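The authors deposited, per the file headers, the intensity of 45281 probes per array, linear and not normalized, each with a detection p-value. Per the submitters' processing notes, GenomeStudio 1.9.0 was used. Another table that the authors deposited holds intensity values that rank probes like the matching array and share medians (135.6 to 135.7), and served as an alternative. From the first table, values were background-corrected from the detection p-values and quantile-normalized with neqc (offset 16) of limma 3.58.1 in R 4.3.3. Probes with a detection p under 0.05 on at least 6 arrays were kept (20172). Gene names came from the platform annotation (34885 probes name 1 gene, 18 several, 10378 none); 0 changed against current symbols. The probes' genome build is not given in the sources used here. No probe naming several genes was used.

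Groups were compared with lmFit and eBayes with the chip as a fixed term, two-sided, adjusted over all kept probes. The fit and the permutation test were tested on simulated data. Every clock gene is named. Of the wider list, the 3 genes with the smallest p and the 3 with the largest r with Dbp are named, and for Dbp and Arntl the 3 highest and 3 lowest genes by r. The members and lists were chosen with earlier results of these data known. The relations with markers were extended to every detected clock gene after the data were seen. No array duplicated another (correlations from 0.983 to 0.994). The number of arrays limits the precision. Alternatives changed the background correction, normalization, filter, chip term, variance model, array weights and replicate block, and left out arrays. Some genes of the wider list are not reported here.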

Additional observations from a re-analysis of the deposited data

Results flagged for a closer look

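Of 58 sets of 6 arrays examined, over the kept clock gene probes and the other named genes, 2 held an array far from the others, where chance gives about 1 in 20. In Control, Per3 was highest in Control 2 at 7.33, against 6.84 in the nearest array, a gap of 0.662 of the group's range. Slc26a4 was highest in Control 1 at 10.25, against 9.89 in the nearest array (0.632 of the range), and Control 1 was also the array with the lowest Dbp. Slc26a4 was examined because of its negative r with Dbp over these same arrays, so the low Dbp there is not a separate observation.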

How the results depend on the processing

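Under 24 alternatives to the fit, called clock genes, called genes of the wider list and all called probes stayed at 0 in limma; the lowest adjusted p was 0.985 among clock genes (median scaling) and 0.0709 over all probes (without Control 2). Under the alternatives run for the chip term, clock genes called stayed at 0. Of 234 recomputed differences of the 9 genes, none of them called, 27 changed sign, and those of Arntl, Npas2 and Nr1d1 kept theirs. Per2 turned to 0.056 with median scaling (median of all probes 0.055), 0.023 without the chip term, 0.013 with the chip as a random block, 0.060 in chip 2 alone and 0.054 without the 4 choroid plexus arrays. Cry2 turned to -0.0097 without the chip term and -0.037 in chip 2 alone. Nr1d2 turned to -0.069 without the chip term, -0.043 with the random block and -0.074 in chip 2 alone. Dbp turned to 0.095 in chip 1 alone and 0.065 without the choroid plexus arrays, Per3 to 0.18 in chip 2 alone and 0.034 without those arrays, and Clock to -0.017 without those arrays. With the replicate block, Clock turned to -0.025, Per2 to 0.061 and Dbp to 0.14, Nr1d1 was -0.026, and called clock genes stayed at 0. Same-numbered arrays had deviations correlated from -0.13 to 0.24, with 3 of 6 above 0.1 and 1 of 6 best with its own number. These values cannot exclude a pairing by number, and the main fit used none. Leaving out 1 array gave ranges of -0.39 to 0.10 for Dbp, -0.14 to 0.16 for Nr1d2, -0.10 to 0.090 for Per2 and -0.30 to 0.046 for Per3. Correlated pairs, 1 of 36 as reported, numbered 5 with median scaling, 4 centred on the chip, 0 with group and chip removed (lowest adjusted p 0.0625, permutation) and 0 with Spearman's rho (lowest adjusted p 0.0519), and from 0 to 3 with 1 array left out (3 without EtOH 5, 2 without EtOH 2). The cause of these shifts was not tested. Signal over background limits Cry1, whose probe was detected on 0 of 12 arrays.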
